A study of Drosophila melanogaster with 12 samples.

Results

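Mesodermal cells in which Msh was overexpressed were compared with wild-type mesodermal cells, across every gene measured at a bright level and including functions beyond muscle contraction, glycolysis and the cell cycle. A probe set, the group of short probes that reads 1 transcript on the array, was described where the mean log2 value of either group was at least 7 and its annotation gave exactly 1 gene. This rule found 4997 of 18769 probe sets, for 4757 of 11981 named genes, and 6 of the study's 12 arrays entered the comparison. The Msh arrays (A, B and C) held RNA of GFP-positive cells sorted by flow cytometry from Drosophila melanogaster embryos that carried twi-gal4, UAS-GFP and UAS-msh. The wild-type arrays (set 2, A, B and C) held RNA of cells sorted in the same way from embryos with twi-gal4 and UAS-GFP alone, and the embryos of both groups were at late stage 11 to early stage 12. The study's other 6 arrays, a separate wild type (set 1) of the same genotype and cells that carried UAS-S59 to overexpress the homeodomain protein Slou, are used only where named. No label ties either wild-type set to the preparation of the Msh cells. Set 2 was used because its deposited values share the scale of the Msh arrays, whereas set 1 had to be rescaled first.

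Msh (muscle segment homeobox, gene symbol Dr) is a homeodomain transcription factor of the Msx family. In the embryonic mesoderm it is made in the progenitors and founder cells of particular body wall muscles, where such identity factors set the properties of a muscle before each founder fuses with neighbouring myoblasts. Msh is also known for its role in dividing the early nervous system along its dorsoventral axis. In the cells studied here the Gal4 driver follows the twist promoter, so Msh and GFP are made across the mesoderm and not only in the founders that normally use it.

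The values were on a log2 scale, so that a difference of 1 is a doubling, and a gene is said to have risen or fallen where limma's moderated test passed an adjusted p of 0.05 over all 18769 probe sets. Of all probe sets 2.86% were called higher and 3.95% lower in Msh. Taking for each of 11981 named genes its brightest probe set, 3.24% were called higher and 4.98% lower. Among the 4757 bright genes 258 (5.42%) rose and 462 (9.71%) fell. Values repeated closely within groups: the median SD of the bright probe sets over 3 arrays was 0.08 in wild type and 0.05 in Msh, against 0.728 and 0.601 for the dimmer ones. The groups did not overlap for 65.3% of the bright probe sets, so a gap between the groups on its own was common. The number of calls depended on each array. All 6 arrays gave 1278 called probe sets, the fits without wild-type array A, B or C gave 602, 237 or 257, and those without Msh array A, B or C gave 16, 28 or 50. Nothing in the labels tells separate embryo collections from repeated arrays of 1 RNA, and the p-values cover array-to-array spread that may be technical alone.

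Of the 4997 bright probe sets, 4637 had both group means at 7 or more, 174 reached it in Msh alone and 186 in wild type alone. Those bright in 1 group alone had to differ to some degree, and they are described separately with no weight placed on their number. Among those bright in both groups 211 were called higher and 407 lower, with a median size of 0.59. Of these, 8 rose and 44 fell by more than 1. At the edge of the rule, Myd88 lay just inside with means of 7.0 in wild type and 6.37 in Msh, and Spt7 just outside with 6.91 in wild type and a mean in Msh that rounds to 7.0.

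**Figure D1:**
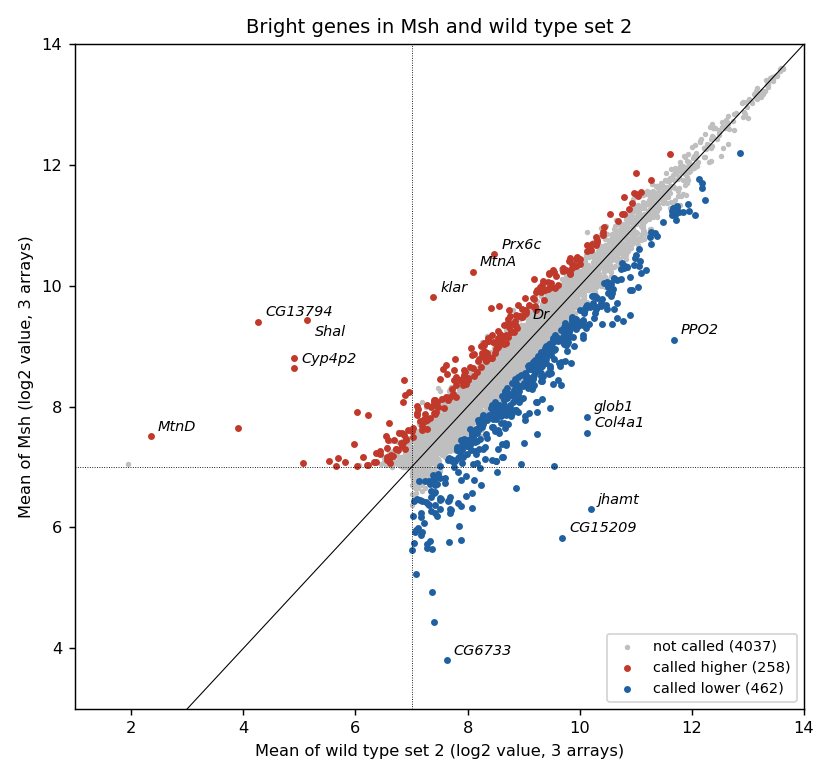
Mean log2 value of 3 wild-type set 2 arrays (horizontal) and 3 Msh arrays (vertical) for the 4757 bright genes, 1 point a gene, with called genes in red (258 higher) and blue (462 lower) and dotted lines at 7. Most genes lie near the diagonal, and MtnD, CG13794, Shal, jhamt, CG15209 and CG6733 are among the called genes far from it.

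The overexpressed factor itself was measured first. Dr read 8.77, 9.17 and 9.16 in wild type and 9.34, 9.34 and 9.38 in Msh. The groups did not overlap, but the difference of 0.32 (SE 0.14) did not pass, with an adjusted p of 0.254. Against the rescaled set 1 it was 0.66 (adjusted p = 0.0115). Whether this probe set reads the message of the transgene was not examined, so the overexpression of Msh rests on the labels. In the cells that overexpressed Slou, Dr fell by 2.80 relative to set 1 (adjusted p = 0.00569). The other factor, slou, was dim in both groups of the Msh comparison and fell from 6.49 to 5.92, by 0.57 on the log2 scale (SE 0.10, adjusted p = 0.0458).

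The genes that rose most among those bright in both groups were klar, MtnA and Prx6c. klar encodes Klarsicht, which links nuclei and lipid droplets to microtubule motors. It read 7.25, 7.54 and 7.38 in wild type and 9.85, 9.78 and 9.79 in Msh, up by 2.42 on the log2 scale (SE 0.10, adjusted p = 0.00322). A rise of klar was also present in the Slou cells, at 2.16 (adjusted p = 0.00873), and the test of the difference between the effects gave 0.25 (SE 0.17, adjusted p = 0.466). MtnA encodes a metallothionein, a small cysteine-rich protein that binds copper, zinc and cadmium. Its arrays read 8.08, 8.13 and 8.06 in wild type and 10.24, 10.22 and 10.23 in Msh, up by 2.14 on the log2 scale (SE 0.07, adjusted p = 0.00186). The peroxiredoxin gene Prx6c, whose product reduces peroxides, went from 8.30, 8.38 and 8.76 to 10.51, 10.58 and 10.48, up by 2.05 on the log2 scale (SE 0.15, adjusted p = 0.00797). Both differed from the Slou effect, by 3.12 for MtnA (SE 0.30, adjusted p = 0.000351) and 3.02 for Prx6c (SE 0.34, adjusted p = 0.0009). In that test 9.22% of all 18769 probe sets were called.

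Smaller rises followed, several of them in genes whose role is known. CG32264 rose by 1.21 (adjusted p = 0.0141) and CG30043 by 1.10 (adjusted p = 0.00723). The gene whd encodes carnitine palmitoyltransferase, which admits long-chain fatty acids to mitochondria, and went from 7.76, 7.64 and 7.43 to 8.69, 8.71 and 8.66, by 1.07 on the log2 scale (SE 0.11, adjusted p = 0.0154). The PDZ-domain gene bbg rose by 1.06 (adjusted p = 0.021), and ds, which encodes the large cadherin Dachsous of planar polarity, by 1.00 (adjusted p = 0.0222). kmr rose by 0.93 (adjusted p = 0.0177). In each of these 6 genes the 3 Msh arrays lay above the 3 wild-type arrays, which is likely for genes picked by their called rise. The groups did not overlap for 65.3% of all bright probe sets.

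A second group of genes was bright in Msh and dim in wild type. The metallothionein gene MtnD read 0.91, 3.39 and 2.74 in wild type and 7.66, 7.29 and 7.57 in Msh, a difference of 5.16 (SE 0.68, adjusted p = 0.0242), and its wild-type arrays were scattered, with an SD of 1.28. CG13794 went from 4.02, 4.34 and 4.41 to 9.38, 9.37 and 9.46, by 5.15 on the log2 scale (SE 0.13, adjusted p = 0.00186). It also rose in the Slou cells, by 6.99 (adjusted p = 0.00667), and the test gave a smaller Msh effect, by -1.84 (SE 0.41, adjusted p = 0.0245). Shal encodes a voltage-gated potassium channel that carries a transient current in neurons and muscle. It read 5.04, 5.39 and 5.00 in wild type and 9.42, 9.45 and 9.44 in Msh, up by 4.30 on the log2 scale (SE 0.13, adjusted p = 0.00186). CG13361 rose by 3.89 (adjusted p = 0.00727).

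The cytochrome P450 genes Cyp4p1 and Cyp4p2 are neighbours in the genome and rose by nearly the same amount. Cyp4p1 went from 4.09, 4.53 and 3.12 to 7.73, 7.59 and 7.62, by 3.73 on the log2 scale (SE 0.38, adjusted p = 0.0155). Cyp4p2 went from 5.34, 4.46 and 4.90 to 8.69, 8.61 and 8.62, by 3.74 on the log2 scale (SE 0.24, adjusted p = 0.00683). In the Slou cells Cyp4p1 rose by 2.15 (adjusted p = 0.0367) and Cyp4p2 differed by 3.88 (adjusted p = 0.0539), and neither difference between the effects passed (adjusted p = 0.0892 and 0.945). The other genes of this kind were CG12674 at 2.00, SCAP at 1.87, CG44085 at 1.63 and the organic anion transporter gene Oatp30B at 1.58. SCAP encodes the escort protein that carries the lipid regulator SREBP to the Golgi. All 4 passed, with adjusted p-values from 0.00322 to 0.0111.

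**Figure D2:**
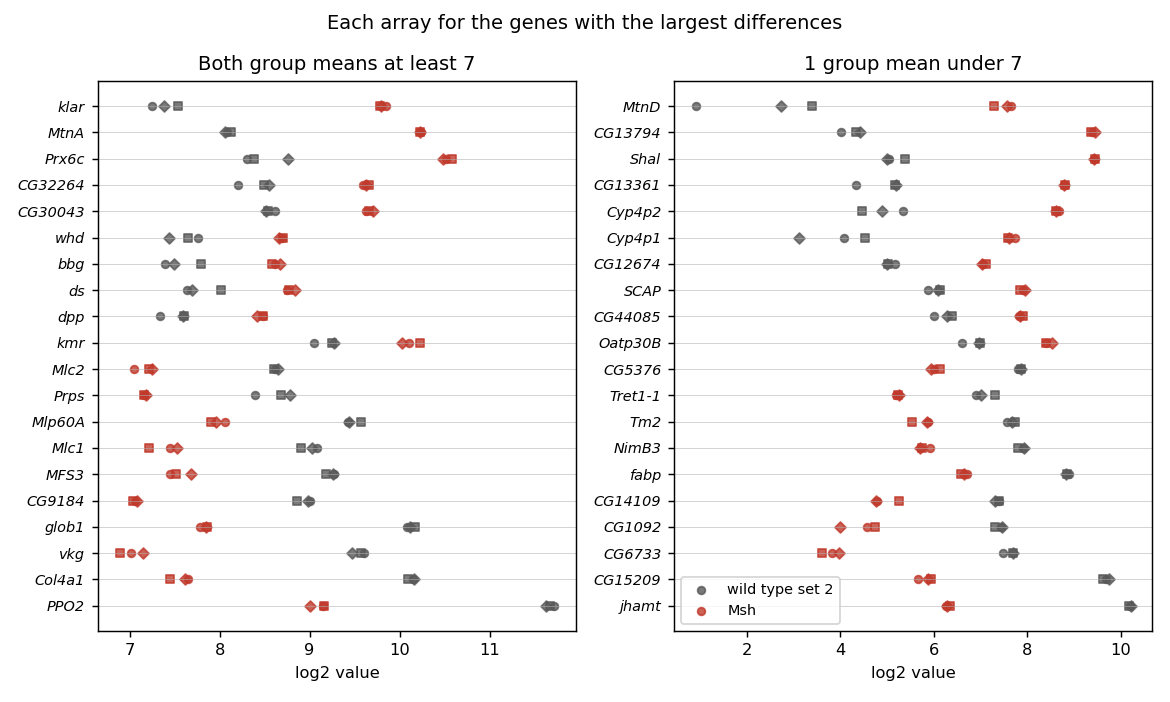
Log2 value of each array for the 10 genes with the largest rise and the 10 with the largest fall, for genes bright in both groups (left) and in 1 group alone (right); grey points are the 3 wild-type set 2 arrays, red points the 3 Msh arrays, and circles, squares and diamonds are arrays A, B and C. The groups are apart for every gene shown, which is likely for genes picked by their called difference, and the widest wild-type scatter is that of MtnD.

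A blood cell gene, PPO2, and the genes of type IV collagen fell furthest among those bright in both groups. PPO2 encodes a prophenoloxidase that crystal cells, a class of hemocyte, store for melanization. It read 11.72, 11.68 and 11.63 in wild type and 9.15, 9.16 and 9.01 in Msh, a fall of 2.57 on the log2 scale (SE 0.08, adjusted p = 0.00186), or 5.93-fold. Col4a1 and vkg encode the chains of type IV collagen, the main collagen of basement membranes, and lie side by side in the genome. Col4a1 went from 10.15, 10.09 and 10.16 to 7.65, 7.45 and 7.61, down by 2.57 on the log2 scale (SE 0.09, adjusted p = 0.00186). vkg went from 9.61, 9.57 and 9.47 to 7.02, 6.89 and 7.15, down by 2.53 on the log2 scale (SE 0.10, adjusted p = 0.00322). The collagen genes also fell in the Slou cells, by 2.62 and 2.97, and the differences between the effects were 0.05 (SE 0.11, adjusted p = 0.861) and 0.44 (SE 0.16, adjusted p = 0.141). For PPO2 the Slou cells differed from their wild type by 0.34 (adjusted p = 0.201), and the effects differed by -2.91 (SE 0.11, adjusted p = 4.21e-06).

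glob1 encodes an intracellular haemoglobin, a haem protein that binds oxygen. It read 10.08, 10.17 and 10.11 in wild type and 7.78, 7.86 and 7.85 in Msh, a fall of 2.29 on the log2 scale (SE 0.07, adjusted p = 0.00186), and it fell by 2.29 in the Slou cells. CG9184 fell by 1.89 (adjusted p = 0.00322) and Prps, which encodes the synthase that makes the ribose phosphate donor of nucleotide synthesis, by 1.46 (adjusted p = 0.0108). The membrane transporter gene MFS3 fell by 1.69 (adjusted p = 0.00618). Against the rescaled set 1 these falls were not all there: CG9184 was -0.23 (adjusted p = 0.101), Prps 0.71 (adjusted p = 0.0158) and MFS3 0.30 (adjusted p = 0.151). PPO2, Col4a1, vkg and glob1 were lower against set 1 as well, at -2.08, -2.53, -2.64 and -1.05.

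Among genes bright in wild type alone, jhamt fell most. It encodes juvenile hormone acid methyltransferase, which acts late in the synthesis of that insect hormone. Its arrays read 10.19, 10.19 and 10.21 in wild type and 6.26, 6.35 and 6.29 in Msh, a fall of 3.90 on the log2 scale (SE 0.07, adjusted p = 0.000867). Against set 1 the difference was -1.85 (adjusted p = 0.00293), so the size differed between the wild-type sets. CG15209 went from 9.70, 9.63 and 9.74 to 5.66, 5.95 and 5.88, down by 3.86 on the log2 scale (SE 0.11, adjusted p = 0.00186), and fell by 3.79 in the Slou cells. CG6733 went from 7.48, 7.70 and 7.70 to 3.83, 3.62 and 3.97, down by 3.82 on the log2 scale (SE 0.13, adjusted p = 0.00186). CG1092 fell by 2.97, CG14109 by 2.44 and CG5376 by 1.82, of which CG14109 did not pass against set 1 (adjusted p = 0.307). The fatty acid-binding protein gene fabp fell by 2.21 on the log2 scale (SE 0.08, adjusted p = 0.00186), and NimB3, of the Nimrod family of phagocytosis-related proteins, by 2.09 on the log2 scale (SE 0.10, adjusted p = 0.00392). The tropomyosin gene Tm2 and the trehalose transporter gene Tret1-1 are given below with their groups.

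The 32 gene lists were read over all 914 of their measured genes, bright or dim, with the median of all probe sets at 0.02 for comparison. Over all 11981 named genes 3.24% were called higher and 4.98% lower, the shares beside which list counts stand. Against set 1 calls were more common, with 1032 of the 4997 bright probe sets higher and 1091 lower. Among genes bright in both groups the median varied with gene span, described below, from -0.33 up to 1000 bases to 0.20 over 32000. Genes of a list are not independent of each other, and their counts describe these arrays. With 1 of the 6 arrays left out, the counts dropped: 0 to 6 contractile, 0 to 3 glycolytic and 0 to 3 carbohydrate store and transport genes then fell, and 0 to 4 cell cycle genes rose. In bulk RNA of sorted cells, fewer cells of a type and less RNA per cell cannot be told apart.

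The muscle identity factors, the class to which Msh belongs, had no settled direction. Of 20 measured, 1 rose and 6 fell relative to set 2, and the median was 0.15 with 11 above and 9 below 0. kn, which encodes the COE factor Collier of a dorsal muscle, read 8.84, 8.93 and 8.99 in wild type and 8.0, 8.10 and 8.11 in Msh, a fall of 0.84 on the log2 scale (SE 0.08, adjusted p = 0.0146). The homeobox gene Ptx1 went from 8.03, 8.17 and 8.28 to 7.38, 7.41 and 7.53, down by 0.73 on the log2 scale (SE 0.10, adjusted p = 0.0273). Against set 1 Ptx1 was -0.19 and did not pass (adjusted p = 0.448). The LIM-homeodomain gene ap, which acts in lateral muscles, rose from 6.51, 6.78 and 6.51 to 7.70, 7.74 and 7.74, by 1.13 on the log2 scale (SE 0.10, adjusted p = 0.0131). The other falls were in genes that were dim in both groups, with Six4 at -0.68, eve at -0.67, slou at -0.57 and nau, which encodes the fly MyoD protein, at -0.43. Kr (0.64), tup (0.74) and lbl (0.85) did not pass. In the Slou cells ap rose by 1.46 (adjusted p = 0.0172) and kn gave -0.76 (adjusted p = 0.0608), and the effects on Ptx1 differed by 1.53 (SE 0.28, adjusted p = 0.00999). Against set 1 the balance of calls turned, with 7 risen and 5 fallen, and the median was -0.12. With an intensity trend 7 rose and 6 fell, with 1 array left out 0 to 2 rose and 0 to 3 fell, and without wild-type array A the median was -0.07.

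Of 11 myoblast fusion genes only rols passed, and it rose. rols encodes an adaptor of founder cells that acts at the site of fusion, and it read 8.33, 8.33 and 8.41 in wild type and 9.06, 9.12 and 9.08 in Msh, up by 0.74 on the log2 scale (SE 0.07, adjusted p = 0.0143). It also rose in the Slou cells, by 0.92 (adjusted p = 0.0231). The recognition receptor genes gave differences of 0.03 for sns, 0.30 for kirre, 0.12 for rst and 0.07 for hbs. The median of the fusion genes was 0.07. Of 17 integrin and attachment genes, 1 rose and 2 fell. if encodes an alpha integrin subunit and went from 8.18, 8.12 and 8.21 to 8.53, 8.55 and 8.65, up by 0.41 on the log2 scale (SE 0.08, adjusted p = 0.0492). scb, which encodes another alpha subunit, fell by 0.46 on the log2 scale (SE 0.07, adjusted p = 0.0358), and the matrix ligand gene Tig by 1.25 on the log2 scale (SE 0.10, adjusted p = 0.00998). Against set 1 the attachment genes gave 8 rises and 4 falls, with a median of 0.35. None of 12 surface receptors and guidance genes passed against set 2, with a median of 0.25, but 3 rose and 0 fell in the fit of all 12 arrays, 5 rose and 2 fell with an intensity trend, and 7 rose and 1 fell against set 1, where the median was 0.68.

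Contractile genes were mostly lower relative to set 2, and the list's direction turned relative to set 1. Of 19 measured, 8 fell and 1 rose, with a median of -0.60. Mlc1 and Mlc2 encode the alkali and regulatory light chains of muscle myosin. Mlc2 read 8.61, 8.60 and 8.65 in wild type and 7.04, 7.21 and 7.24 in Msh, a fall of 1.46 on the log2 scale (SE 0.09, adjusted p = 0.00628), and Mlc1 fell by 1.61 on the log2 scale (SE 0.12, adjusted p = 0.008). The muscle LIM protein gene Mlp60A fell by 1.50 on the log2 scale (SE 0.09, adjusted p = 0.00618), the troponin C gene TpnC73F by 1.31 on the log2 scale (SE 0.07, adjusted p = 0.00618) and Tm2 by 1.91 on the log2 scale (SE 0.13, adjusted p = 0.00733). Zasp52, which encodes a protein of the Z-disc, rose by 0.86 on the log2 scale (SE 0.10, adjusted p = 0.0191). Against set 1 the list's median was 0.20, with 8 of 19 genes lower, and Mlc2 was higher at 0.78 (adjusted p = 0.0166). Tm2 at -1.01 and Mlp60A at -0.69 were lower against set 1 too (adjusted p = 0.0248 and 0.0156).

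Genes of the mitochondrial ribosome, which makes the proteins encoded by mitochondrial DNA, were all lower in Msh. Of 69 measured, 39 fell and 0 rose, against the 4.98% of all genes called lower, and the median was -0.47. For 66 of them the groups did not overlap, against 65.3% of all bright probe sets. The large subunit (27 of 44 fell) and the small subunit (12 of 25 fell) had medians of -0.52 and -0.45. mRpL18 read 8.88, 8.90 and 8.91 in wild type and 7.96, 7.94 and 7.83 in Msh, a fall of 0.98 on the log2 scale (SE 0.07, adjusted p = 0.00854). mRpL20 went from 8.68, 8.72 and 8.75 to 7.65, 7.63 and 7.84, down by 1.01 on the log2 scale (SE 0.09, adjusted p = 0.0123). mRpL41 fell by 0.92 and mRpL17 by 0.83 (adjusted p = 0.00946 and 0.00938), and the smallest difference of the list was -0.08 for mRpS9. Among the cytosolic ribosomal proteins, of 41 measured 0 rose and 1 fell, the dim RpS19b at -1.03, and the median was -0.05.

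Subunits of the respiratory chain and the ATP synthase, which the mitochondrial ribosome's products join, were lower too. Of 66 measured 31 fell and 1 rose, with a median of -0.45. By complex, 16 of 32 genes of complex I, 3 of 6 of complex III, 6 of 14 of complex IV and 6 of 14 of the ATP synthase fell. All 45 members that were bright in both groups were below 0. ND-13B, a subunit of complex I, read 8.50, 8.50 and 8.63 in wild type and 7.59, 7.59 and 7.67 in Msh, a fall of 0.93 on the log2 scale (SE 0.08, adjusted p = 0.0109). ATPsynCF6, which couples the rotor and catalytic parts of the ATP synthase, went from 11.10, 11.02 and 11.02 to 10.33, 10.33 and 10.33, down by 0.72 on the log2 scale (SE 0.07, adjusted p = 0.0146). ND-13A fell by 0.81 and ND-19 by 0.75 (adjusted p = 0.0126 and 0.0149). The dim UQCR-11 was the gene that rose, at 0.61.

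The mitochondrial falls were also present against set 1, where the medians were -0.49 for the ribosomal genes and -0.39 for the respiratory genes, with 66 of 69 and 54 of 66 lower. In the Slou cells the medians were -0.08 and -0.05 and 0 genes of either list passed. The test of the difference between the effects called 32 of 69 and 27 of 66 genes, all lower in Msh. The number of calls was fragile: with 1 array left out, 0 to 15 genes of each list fell. In those fits 68 to 69 ribosomal genes were below 0, with medians from -0.51 to -0.45. For the 66 ribosomal genes whose groups did not overlap, leaving out 1 array cannot change the sign. These fits therefore do not test the direction.

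**Figure D3:**
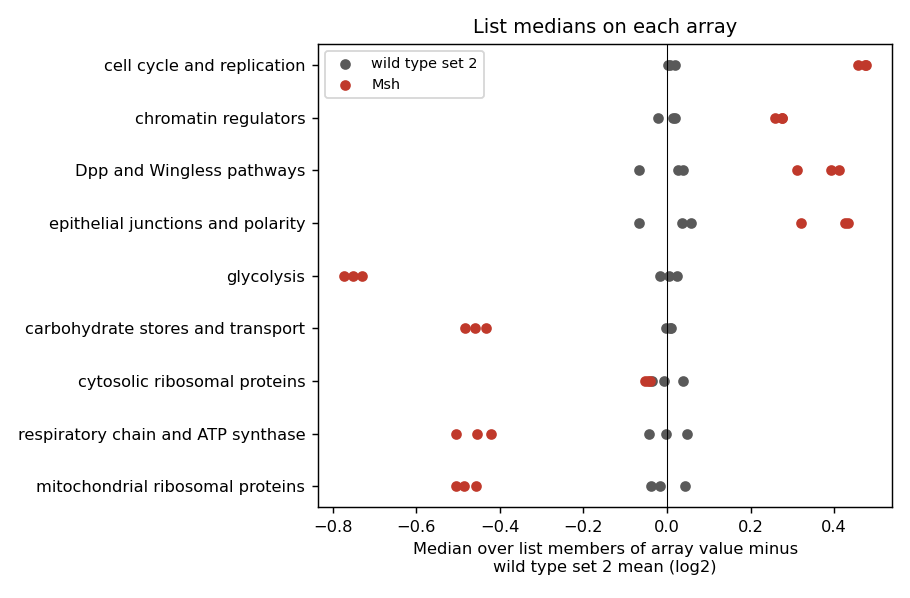
Median, over the members of 9 lists, of each array's log2 value minus the wild-type set 2 mean; grey points are the wild-type arrays and red points the Msh arrays. The Msh and wild-type points of the cytosolic ribosomal proteins lie close together, with the Msh median of that list at -0.05.

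The mitochondrial genes are compact, and short genes as a class were lower in Msh. Gene span, the distance from a gene's start to its end with introns included, was known for 4418 of 4426 genes bright in both groups (99.8%). Over those genes, span and the Msh difference had a Spearman correlation of 0.468, a description across genes that share the same 6 arrays. Genes of up to 1000 bases had a median of -0.33, with 338 of 375 below 0, 140 fallen and 4 risen. Those of 1000 to 2000 bases had a median of -0.09, those of 2000 to 4000 bases 0.04, and those over 32000 bases 0.20, with 35 of 199 risen and 8 fallen. The correlation was 0.374 to 0.492 in each of the 9 pairings of a Msh with a wild-type array, against 0.025 to 0.258 in size between arrays of the same group. It was 0.476 against set 1 and 0.076 for Slou against set 1.

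Within the same span classes the mitochondrial genes lay below the rest. Up to 1000 bases, the medians were -0.54 for 40 mitochondrial ribosomal genes, -0.60 for 15 respiratory genes and -0.29 for the 320 other genes. From 1000 to 2000 bases they were -0.40 for 26, -0.47 for 23 and -0.08 for 1041. Cytosolic ribosomal genes stood at -0.05 in both classes, over 12 and 17 genes. These sets were not matched for brightness, and the part of gene span in the mitochondrial falls was not tested. A measure of RNA or labelling moved with the group as well: the 3 prime minus the 5 prime control probe sets of Act5C differed by 1.25 ± 0.03 in wild type and 1.98 ± 0.08 in Msh (SD, n = 3), while those of GAPDH differed by 2.89 ± 0.36 and 3.04 ± 0.16. The poly-A control transcripts averaged 10.75 ± 0.45 in wild type and 9.11 ± 0.15 in Msh. On a scale set by those controls every Msh difference from set 2 would be larger by the gap between these means. Falls from set 2 smaller than that gap would turn sign. The controls of the set 1 and Slou arrays were not read. The part of these measures in any difference was not tested.

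**Figure D4:**
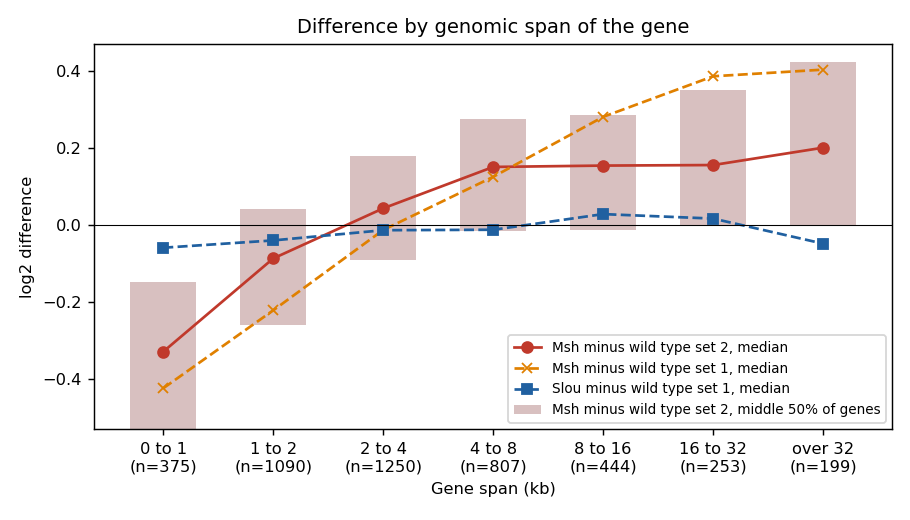
Median log2 difference by gene span for genes bright in both groups, for Msh minus wild type set 2 (red, with the middle 50% of genes shaded), Msh minus wild type set 1 (orange) and Slou minus wild type set 1 (blue); n is the number of genes. The Msh medians run from -0.33 to 0.20 with increasing span, and the Slou medians stay near 0.

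The carbohydrate genes that were called all fell in Msh against set 2. Of 9 glycolytic genes 6 fell and 0 rose, with a median of -0.72. The enolase gene Eno read 10.95, 10.93 and 10.83 in wild type and 9.51, 9.58 and 9.47 in Msh, a fall of 1.38 on the log2 scale (SE 0.08, adjusted p = 0.00618). Tpi, for triosephosphate isomerase, fell by 1.18 on the log2 scale (SE 0.13, adjusted p = 0.0171), Hex-A, for a hexokinase, by 0.61 on the log2 scale (SE 0.07, adjusted p = 0.0202) and the aldolase gene Ald1 by 0.98 on the log2 scale (SE 0.17, adjusted p = 0.0403). Of 12 genes of sugar stores and transport 6 fell and 0 rose, with a median of -0.48. Glyp, for the phosphorylase that releases glucose units from glycogen, went from 7.28, 7.27 and 7.28 to 5.47, 5.75 and 5.75, down by 1.62 on the log2 scale (SE 0.11, adjusted p = 0.00716). The trehalase gene Treh fell by 1.29 on the log2 scale (SE 0.13, adjusted p = 0.0156), the phosphoglucomutase gene Pgm1 by 1.12 on the log2 scale (SE 0.07, adjusted p = 0.00666) and Tret1-1, which carries trehalose across membranes, by 1.85 on the log2 scale (SE 0.13, adjusted p = 0.00789).

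Against set 1 these carbohydrate differences were smaller, with medians of -0.26 for glycolysis and -0.13 for sugar stores and transport. Eno was -0.11 there (adjusted p = 0.61), Pgm1 -0.25 (adjusted p = 0.11), and Ald1 and Tret1-1 were on the other side of 0 at 0.44 and 0.17. Tpi, Hex-A and Treh did not pass there either, at -0.59, -0.16 and -0.29 (adjusted p from 0.257 to 0.451). Glyp remained lower, at -0.96 (adjusted p = 0.0118). In the citric acid cycle 3 of 14 genes fell and 1 rose. The isocitrate dehydrogenase gene Idh went from 8.63, 8.60 and 8.61 to 7.45, 7.35 and 7.34, down by 1.23 on the log2 scale (SE 0.07, adjusted p = 0.00618), and SdhC and SdhD, for the membrane anchors of succinate dehydrogenase, fell by 0.68 and 0.52 (adjusted p = 0.0195 and 0.0449). Idh3b, for a subunit of the mitochondrial isocitrate dehydrogenase that uses NAD, rose from 7.59, 7.67 and 7.66 to 8.49, 8.61 and 8.52, by 0.90 on the log2 scale (SE 0.08, adjusted p = 0.0111), and by 0.93 in the Slou cells (adjusted p = 0.0243).

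Among 20 genes of lipid transport and metabolism 2 rose and 6 fell, with a median of -0.15 that turned to 0.19 against set 1. apolpp encodes the apolipoprotein of lipophorin, the lipid carrier of the hemolymph. It read 9.17, 9.22 and 9.33 in wild type and 7.93, 7.91 and 7.91 in Msh, a fall of 1.33 on the log2 scale (SE 0.08, adjusted p = 0.00618), and was lower against set 1 at -1.26 (adjusted p = 0.00389). Npc2a, for a sterol-binding protein, fell by 1.30 on the log2 scale (SE 0.14, adjusted p = 0.0159) and mdy, for an enzyme that makes triglycerides, by 1.16 on the log2 scale (SE 0.09, adjusted p = 0.00903). Against set 1 Npc2a was -0.46 and did not pass (adjusted p = 0.0566), while mdy passed at -0.56 (adjusted p = 0.0329). The perilipin genes Lsd-1 and Lsd-2, whose products coat lipid droplets, fell by 1.55 and 0.66 (adjusted p = 0.0162 and 0.023). FASN1, for fatty acid synthase, rose by 0.94 (adjusted p = 0.0409) beside whd. Of 17 genes of purine, folate and amino acid metabolism 5 fell and 0 rose. Shmt, for serine hydroxymethyltransferase, fell by 0.87 on the log2 scale (SE 0.08, adjusted p = 0.0146), the glutamate dehydrogenase gene Gdh by 0.76 on the log2 scale (SE 0.08, adjusted p = 0.0165) and pug, for a folate enzyme, by 0.56 on the log2 scale (SE 0.07, adjusted p = 0.0208). Cbs fell by 0.48 on the log2 scale (SE 0.09, adjusted p = 0.0477), but was 0.09 against set 1, where the list's median was 0.09. Shmt was -0.28 there and did not pass (adjusted p = 0.198), while Gdh and pug passed at -0.44 and -0.53.

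Beside type IV collagen, 3 other genes of basement membrane and matrix fell. Of 17 measured 5 fell and 0 rose in all, with a median of -0.27. Tig, for the integrin ligand Tiggrin, went from 9.16, 8.89 and 9.05 to 7.74, 7.86 and 7.74, and Glt, for glutactin, fell by 0.91 on the log2 scale (SE 0.09, adjusted p = 0.0154). SPARC, for a collagen-binding protein, fell by 0.43 on the log2 scale (SE 0.07, adjusted p = 0.0421). The laminin genes gave 0.12 for LanA, 0.20 for LanB1 and 0.13 for LanB2, none of which passed. Genes of the secretory pathway and of protein folding in the ER, on which collagen export depends, had a median of 0.03 with 0 of 14 called, and the collagen export receptor gene Tango1 gave 0.12 (SE 0.07, adjusted p = 0.4).

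Markers of blood cells and fat body include some of the genes that fell. Of 12 hemocyte markers, all measured, 3 fell and 0 rose: Hml from 3.88 to 0.31, PPO1 from 10.90 to 9.93, and PPO2 as above. Pxn (10.70 and 10.83), srp (10.86 and 10.66) and ush (9.23 and 9.63) did not pass. The log2 of the summed hemocyte markers lay between 13.51 and 13.57 in wild type and between 13.01 and 13.06 in Msh. Without PPO1 and PPO2 the ranges overlapped, at 12.65 to 12.79 and 12.71 to 12.78, with 5 of the 10 remaining markers higher in Msh and 5 lower. For the 5 fat body markers, of which apolpp alone fell, the sum was 11.30 to 11.54 and 10.97 to 11.14, and without apolpp it was 10.92 to 11.22 and 10.79 to 10.98, which overlapped. Values on this scale have no true zero; 2 markers of each list had a group mean under 2. Hemocytes, the fat body and muscle all come from the mesoderm, and the part of such cells in the falls of PPO2, collagen, apolpp or glob1 was not tested.

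Cell cycle genes were higher in Msh relative to set 2. Of 17 measured 10 rose and 0 fell, and all 17 were above 0, with a median of 0.49. Incenp, of the chromosomal passenger complex, read 9.40, 9.44 and 9.45 in wild type and 10.09, 10.08 and 10.01 in Msh, up by 0.63 on the log2 scale (SE 0.07, adjusted p = 0.0177). The replicative helicase gene Mcm6 rose by 0.61 on the log2 scale (SE 0.07, adjusted p = 0.02), the cyclin gene CycB3 by 0.55 on the log2 scale (SE 0.07, adjusted p = 0.0248) and the mitotic kinesin gene Klp61F by 0.49 on the log2 scale (SE 0.07, adjusted p = 0.0266). Against set 1 the median was 0.21 with 6 of 17 below 0, and 5 genes rose and 1 fell. None of the 4 genes just named passed there (adjusted p from 0.0875 to 0.286). Among 18 chromatin regulators 3 rose and 0 fell, with a median of 0.26, beside 3.24% of all genes called higher. Against set 1, 4 rose and 2 fell, with a median of 0.25. Their median span was 5000.5 bases, and genes of 4000 to 8000 bases bright in both groups had a median of 0.15. The part of gene span in these rises was not tested. HDAC1 rose from 9.77, 9.87 and 9.82 to 10.50, 10.48 and 10.41, by 0.64 on the log2 scale (SE 0.07, adjusted p = 0.0192). trx, for a Trithorax-group methyltransferase, rose by 0.52 on the log2 scale (SE 0.10, adjusted p = 0.0477) and Mi-2, for a remodelling ATPase, by 0.40 on the log2 scale (SE 0.08, adjusted p = 0.049). Against set 1 trx passed at 0.62 (adjusted p = 0.0122). HDAC1 at 0.35 and Mi-2 at 0.06 did not pass there (adjusted p = 0.0545 and 0.634).

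Genes of epithelial junctions and polarity were higher in Msh against both wild-type sets. Of 19 measured 7 rose and 0 fell, all 19 were above 0, and the median was 0.41, or 0.70 against set 1. pyd encodes a junctional scaffold of the ZO family, and read 11.60, 11.62 and 11.60 in wild type and 12.14, 12.17 and 12.24 in Msh, up by 0.58 on the log2 scale (SE 0.07, adjusted p = 0.0205). crb, for the apical membrane protein Crumbs, went from 8.97, 9.01 and 9.10 to 9.58, 9.61 and 9.61, up by 0.57 on the log2 scale (SE 0.07, adjusted p = 0.0231). Its partner gene sdt rose by 0.78 on the log2 scale (SE 0.11, adjusted p = 0.0287), the junction adaptor gene cno by 0.56 on the log2 scale (SE 0.08, adjusted p = 0.0256), and baz, for the fly Par-3 protein, by 0.75 on the log2 scale (SE 0.13, adjusted p = 0.0393). In the Slou cells the list's median was -0.10 with 0 called, and 6 of 19 genes differed between the effects, all higher in Msh. With 1 array left out 0 to 1 genes were called. All 19 stayed above 0, which was certain beforehand for the 16 whose groups did not overlap.

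Epidermal markers moved with the junction genes. Of 6 markers, all measured, 3 rose and 0 fell, and the log2 of their sum was 10.83 to 11.15 in wild type and 11.59 to 11.67 in Msh. The list shares crb and sdt with the junction genes. Without crb, sdt and shg, the sum of the other 3 markers was 9.75 to 10.24 in wild type and 10.61 to 10.75 in Msh, and grh was the 1 that rose. The defining epidermal factor grh read 9.24 in wild type and 9.92 in Msh, and ovo 8.69 and 9.39. The E-cadherin gene shg, on both lists too, differed by 0.21. The junction genes are also long, with a median span of 19455 bases. Of 2 tracheal markers measured, btl rose by 1.10 (adjusted p = 0.0202), and the summed level was 7.60 to 7.89 in wild type and 8.26 to 8.48 in Msh. Their part in the rises was not tested.

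Genes of the Dpp, Wingless and Hedgehog pathways rose where they were called against set 2. Of 17 measured 6 rose and 0 fell, with a median of 0.37. Their median span was 12470 bases, and genes of 8000 to 16000 bases bright in both groups had a median of 0.15. The part of gene span in these rises was not tested. Against set 1, 14 of the pathway genes rose and 2 fell, with a median of 0.57. There 1032 of the 4997 bright probe sets were called higher and 1091 lower. The ligand gene dpp, for the fly BMP that patterns the dorsal mesoderm, read 7.33, 7.60 and 7.60 in wild type and 8.48, 8.48 and 8.41 in Msh, up by 0.94 on the log2 scale (SE 0.10, adjusted p = 0.0174). hh, for the secreted Hedgehog protein, went from 6.47, 6.44 and 6.71 to 7.48, 7.49 and 7.57, up by 0.97 on the log2 scale (SE 0.10, adjusted p = 0.0161). Receptor genes gave 0.21 for tkv, 0.45 for put and 0.21 for sax, none of which passed. Of the genes that these pathways induce, Dad, an inhibitor of Dpp signalling, rose by 0.57 on the log2 scale (SE 0.07, adjusted p = 0.0202) and nkd, an inhibitor of Wingless signalling, by 0.60 on the log2 scale (SE 0.08, adjusted p = 0.0241). The segment polarity genes en and slp2 rose by 0.52 and 0.48 (adjusted p = 0.0434 and 0.0456). dpp fell by 1.34 in the Slou cells (adjusted p = 0.0192), and the effects differed by 2.28 (SE 0.16, adjusted p = 6.3e-05). For hh and Dad the differences between the effects were 1.40 and 1.17 (adjusted p = 0.002 and 0.000411).

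Receptor tyrosine kinase genes gave 4 rises and 0 falls among 18, with a median of 0.34, and 9 rises and 2 falls against set 1, with a median of 0.64. Their median span was 16999.5 bases, and genes of 16000 to 32000 bases bright in both groups had a median of 0.16. The part of gene span here was not tested. aos, for a secreted inhibitor of the EGF receptor that the pathway itself induces, read 8.47, 8.56 and 8.60 in wild type and 9.28, 9.20 and 9.30 in Msh, up by 0.72 on the log2 scale (SE 0.08, adjusted p = 0.0171). In the Slou cells its difference was 0.70 (adjusted p = 0.0581). kek1, another inhibitor of the EGF receptor, was dim and rose by 2.21 (adjusted p = 0.0353), and the FGF ligand gene pyr by 0.85 (adjusted p = 0.0294). The mesodermal FGF receptor gene htl gave 0.82 and did not pass (adjusted p = 0.0528). Of 14 Notch pathway genes 3 rose and 0 fell, against 6 and 2 relative to set 1. numb, for an inhibitor of Notch that is segregated to 1 daughter of a dividing muscle progenitor, went from 9.52, 9.63 and 9.58 to 10.14, 10.16 and 10.16, up by 0.58 on the log2 scale (SE 0.07, adjusted p = 0.0213). The Notch target gene E(spl)mdelta-HLH and the Bearded family gene Brd rose by 0.39 and 0.43 (adjusted p = 0.0433 and 0.0347), but against set 1 they were -0.0024 and -0.21, neither of which passed.

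The metal-binding genes rose as a pair and not as a group. Of 13 genes of metallothioneins and metal transport, MtnA and MtnD rose and 0 fell, and the median was 0.08. Against set 1, 2 of the list rose and 3 fell. The ferritin genes Fer1HCH and Fer2LCH gave 0.06 and 0.08, and MTF-1, for the metal-responsive activator of metallothionein genes, gave 0.08. Of 9 heat shock genes 2 rose and 0 fell relative to set 2, with a median of 0.25. The groups were apart for all 9, against 65.3% of all bright probe sets. With an intensity trend 5 rose and 3 fell. Against set 1 their median was 1.55. Hsp68 went from means of 9.29 to 9.98, up by 0.69 on the log2 scale (SE 0.10, adjusted p = 0.0297), against 3.56 relative to set 1. DnaJ-1 rose by 0.46 on the log2 scale (SE 0.07, adjusted p = 0.0299). Of 150 cytochrome P450, UDP-glycosyltransferase and glutathione transferase genes 3 rose and 7 fell, with a median of -0.03. Beside Cyp4p1 and Cyp4p2 the dim Ugt37B1 rose, by 4.78. Ugt302C1 fell by 1.42 on the log2 scale (SE 0.11, adjusted p = 0.00911) and GstE11 by 1.26 on the log2 scale (SE 0.13, adjusted p = 0.0154).

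Hormone genes gave 3 falls and 1 rise among 18, against 1 fall and 2 rises relative to set 1. Kr-h1, a target of juvenile hormone, went from 8.31, 8.51 and 8.68 to 7.01, 7.20 and 7.07, down by 1.40 on the log2 scale (SE 0.13, adjusted p = 0.0123), and was 0.12 against set 1 (adjusted p = 0.694). The juvenile hormone receptor genes Met and gce, both dim, gave 0.35 and -0.22. The ecdysone receptor gene EcR gave 0.89 (SE 0.18, adjusted p = 0.0549). The dim nuclear receptor gene Hr3 fell by 1.37, and shd, for the enzyme that turns ecdysone into its active form, rose by 0.54 (adjusted p = 0.0381 and 0.0343).

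Genes of the general expression machinery had more calls relative to set 1 than to set 2, as did the bright probe sets as a whole. Of those, 268 were called higher and 488 lower relative to set 2, and 1032 and 1091 relative to set 1. None of 23 translation factors passed, with a median of 0.08. Of 40 proteasome genes 0 rose and 1 fell, the dim Prosalpha3T, and the median was -0.11. Of 20 ribosome biogenesis genes NHP2 alone fell, by 0.44 on the log2 scale (SE 0.07, adjusted p = 0.0403), and of 18 aminoacyl-tRNA synthetases AsnRS and LysRS fell, by 0.47 and 0.40 (adjusted p = 0.0472 and 0.0422). Of 21 splicing genes 2 rose and 2 fell: the Sm protein genes SmF and SmD2 fell by 0.47 and 0.39 (adjusted p = 0.0332 and 0.0449), while Prp8, for the core spliceosomal protein, and pea, for a helicase, rose by 0.42 and 0.50 (adjusted p = 0.0437 and 0.0475). Prp8 and pea did not pass against set 1 (adjusted p = 0.425 and 0.297). There, 13 of 40 proteasome genes fell with a median of -0.29, 9 of 20 ribosome biogenesis genes with a median of -0.26, 6 of 21 splicing genes with a median of -0.22 and 4 of 18 synthetase genes with a median of -0.23, while 2 translation factors rose and 3 fell with a median of 0.07. Of 31 vacuolar ATPase genes Vha100-1 rose by 0.75 on the log2 scale (SE 0.09, adjusted p = 0.0222) and Vha14-1 fell by 0.38 on the log2 scale (SE 0.07, adjusted p = 0.0446). Of 112 cuticle genes, 1 of them bright, 3 rose and 1 fell.

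**Figure D5:**
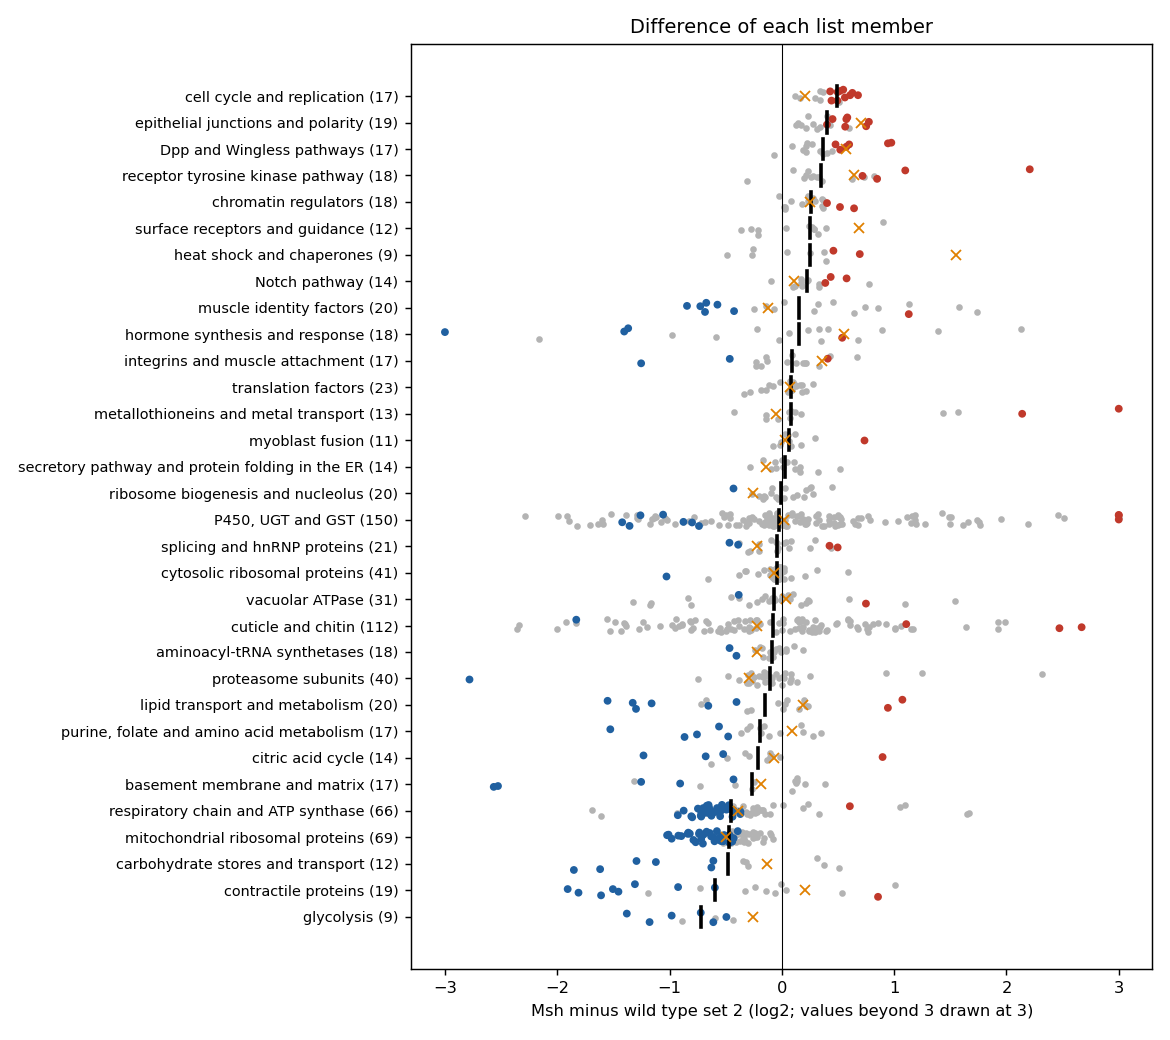
Log2 difference (Msh minus wild type set 2) of each measured gene in the 32 lists, with called genes in red (higher) and blue (lower), the list's median as a black bar and its median against wild type set 1 as an orange cross; the number measured is in brackets. Cell cycle and junction genes lie to the right, and glycolytic, contractile and mitochondrial genes to the left, while the contractile cross lies on the other side of 0.

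The labelled cell type was checked against its markers. Of 8 mesoderm markers 4 were measured and all were bright: twi, the driver's own gene, rose from 8.06 to 8.98, by 0.91 (SE 0.15, adjusted p = 0.0392), and sns, kirre and mid gave 0.03, 0.30 and 0.48 without passing. The log2 of their sum was 10.65 to 10.71 in wild type and 10.94 to 11.00 in Msh. Of 6 heart markers Hand fell, by 0.48 on the log2 scale (SE 0.08, adjusted p = 0.0359), and the sums overlapped, at 10.43 to 10.59 and 10.48 to 10.57. The 2 visceral mesoderm markers measured gave 0 calls. Markers of other tissues were read too: of 10 neural markers 2 rose and 2 fell, with sums of 12.40 to 12.57 in wild type and 12.63 to 12.70 in Msh, and of 4 gland and gut markers sage rose, with sums of 8.63 to 8.75 and 9.0 to 9.19. The 2 germline markers measured gave 0 calls, with sums of 4.19 to 5.14 and 4.91 to 5.29. The neural gene elav was bright in both groups, at 10.96 and 11.27.

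The directions of the called bright genes were set beside those against set 1. Of the 258 genes that rose, 231 (89.5%) were also higher against the rescaled set 1 and 167 of them passed there, while 27 were lower, 6 of which passed. Of the 462 that fell, 401 (86.8%) were lower against set 1 and 299 passed, while 61 were higher, 17 of which passed. The same Msh arrays enter both comparisons, so the second is not independent of the first. Among all bright probe sets, 1032 were called higher and 1091 lower against set 1. How often all bright genes had the same sign in both comparisons was not counted. The 258 and 462 genes include those bright in 1 group alone, which had to differ.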

How the data were processed

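Total RNA of sorted cells was measured on 12 arrays, 3 in each of 4 groups, of which 6 entered the main comparison. The deposited values are log2 values, 1 per probe set and array, made by the authors with affy, per the submitters' processing notes; its version, background correction and summary method are not given in the sources used here. That the scale is base 2 was inferred from the range of the values. Of 18952 probe sets 183 controls were left out. Among the 18769 tested, 13646 were annotated with 1 gene (13543 matched to the fly RefSeq gene table), 402 with several and 4721 with none. Array medians lay between 3.84 and 3.90; the number of arrays and the distance from background limit the precision.

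Msh was compared with wild type set 2 in limma 3.58.1 (R 4.3.3; lmFit and eBayes without trend; moderated standard errors; Benjamini-Hochberg over 18769 probe sets). The difference between the Msh and Slou effects came from a fit of all 12 arrays, and comparison with set 1 from arrays quantile-normalized together. A gene's value is that of its brightest probe set over the 6 arrays. The procedure was tested on simulated data, where it recovered 15 of 50 added changes of 0.5 and 47 of 50 of 1. The simulated noise was independent between arrays, so it does not bear on arrays that may share 1 RNA. The members, lists and tests were chosen with earlier results of these data known. The 109 genes named by rule were Dr, slou, the 10 bright genes with the largest called difference in each direction, separately for genes bright in both groups and in 1 group, and up to 4 called bright members of each of 32 lists, 7 of them defined by symbol patterns; other list members and markers were chosen once their values were known. Of 13 named genes with several probe sets, 4 had other probe sets of opposite sign, 7 in all, none of which was called. Deviations of arrays that share a letter correlated at 0.03, -0.01 and 0.02, so the letters were not taken to pair the arrays. Alternatives were another wild-type set, an intensity trend, a filter at a mean of 4, other scalings, the fit of 12 arrays, a replicate block and leaving out each array. Promoter sequences were not used here. The summed level of a marker list is the log2 of the sum of its unlogged values.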

Additional observations from a re-analysis of the deposited data

How the results depend on the processing

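The number of calls depended on the settings. The trend, filter, replicate block and fit of all 12 arrays leave a gene's difference unchanged, so they cannot test its direction. The 1278 probe sets called became 3621 with an intensity trend, 3586 after a filter at a mean of 4, 3633 against wild type set 1, 0 with a replicate block (3479 at an unadjusted p under 0.05, limma) and 16 to 602 with 1 array left out. The 268 bright probe sets called higher became 506 in the fit of all 12 arrays, 1283 with the trend, 1169 after the filter, 1032 against set 1, 0 with the replicate block and 3 to 103 with 1 array left out. The 488 called lower became 1255, 1213, 1091 and 0 under the same trend, filter, set 1 and replicate block, and 8 to 233 with 1 array left out. The 1730 probe sets called for the difference between the Msh and Slou effects became 1036 to 1412 with 1 array left out. Of the 108 called genes named by rule 95 kept their call after median centring and 107 after quantile normalization of the 6 arrays, with none reversed by either. Against set 1, 77 kept theirs and 10 reversed: MFS3 at 0.30, Prps at 0.71, Mlc2 at 0.78, Tret1-1 at 0.17, TpnC73F at 0.27, Ald1 at 0.44, Brd at -0.21, E(spl)mdelta-HLH at -0.0024, Kr-h1 at 0.12 and Cbs at 0.090. The list medians were recomputed under these settings after seeing the data. Those that reversed against set 1 were muscle identity factors at -0.12, contractile proteins at 0.20, metallothioneins and metal transport at -0.052, lipid metabolism at 0.19, purine, folate and amino acid metabolism at 0.086 and the vacuolar ATPase at 0.040. After the filter muscle identity factors stood at -0.025 and cuticle genes at 0.074. With 1 array left out, muscle identity factors ranged from -0.070 to 0.20 and cuticle genes from -0.17 to 0.032. The cause of these changes was not tested. Dim probe sets had a median SD over 3 arrays of 0.728 in wild type and 0.601 in Msh, so their differences are less precise than those of bright ones.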
